A study of Mus musculus with 6 samples.

Results

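Respiratory chain complexes I to V are built in the inner mitochondrial membrane from proteins encoded in the nucleus and a few encoded in mitochondrial DNA. Complexes I (NADH dehydrogenase) and II (succinate dehydrogenase) pass electrons to ubiquinone, complex III (cytochrome bc1) passes them to cytochrome c, and complex IV (cytochrome c oxidase) passes them to oxygen. Complexes I, III and IV pump protons, and complex V (ATP synthase) uses the gradient to make ATP. Assembly factors insert cofactors and join subunits without remaining in the finished enzyme. Brain endothelial cells also draw much of their ATP from glycolysis.

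The genes described are the nuclear-encoded subunits and assembly factors whose symbols start with Nduf, Sdha to Sdhd, Sdhaf, Uqcr, Uqcc, Cox and a digit, or Atp5. Among the 15917 genes deposited, 109 have such symbols, and the 103 that averaged 1 FPKM or more across the 6 libraries are the members. They comprise 78 subunits and 25 assembly factors. The lowest member, Cox11, averaged 7.49 FPKM, and the highest gene left out, Cox6a2, averaged 0.577 FPKM, so no gene lay close to the limit of 1. Ndufa4 was counted with complex IV, where its product is now placed, and Cox7a2l, which helps to join complexes III and IV, with the assembly factors of complex IV.

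RNA came from bEnd.3 cells, a mouse brain endothelial line transformed with polyoma middle T antigen. In 3 libraries (shNpc1, replicates 4, 5 and 6) the cells carried a short hairpin RNA against Npc1, the gene of a lysosomal cholesterol transporter. In the other 3 (shControl, replicates 1, 2 and 3) they carried a control hairpin, and a further label calls those cells WT. The labels give neither hairpin sequences nor a vector, and do not say whether replicates were separate cultures, separate hairpins or 1 clone, so the p-values reflect no more than the spread among these libraries, and that spread may be technical. Polyadenylated RNA was sequenced, and FPKM (fragments scaled to transcript length and library size) is the unit of every level.

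Npc1 checked the labels, with 0.45, 1.20 and 0.97 FPKM in the shNpc1 libraries, against 6.31, 6.63 and 7.27 FPKM in shControl (exact two-sided permutation p = 0.1, the smallest that 3 against 3 can give; limma log2 fold change -2.07, SE 0.16, adjusted p = 0.000723). The summed FPKM of a library ran from 661950 to 757026, and read depth is unknown. Of the 10 endothelial markers, 9 had a mean of at least 1 FPKM and together summed to 1412 to 1455 FPKM in shNpc1 and 1445 to 1491 in shControl, while Cldn5 was listed at 0 in 5 of 6 libraries. Eng was called higher in shNpc1 (log2 0.32, limma adjusted p = 0.0250). Without overlap between groups, Kdr and Tie1 were also higher, and Tek, Cdh5 and Pecam1 lower, but none of these passed. Erg, Esam and Emcn overlapped. The pericyte or smooth muscle list summed to 7.13 to 12.4 FPKM in shNpc1 and 2.23 to 2.46 in shControl, mostly Acta2. Of that list Pdgfrb (0.74, 0.92 and 0.68 FPKM in shNpc1, against 0.52, 0.65 and 0.66 in shControl) and Notch3 (0.11, 0.18 and 0.14 FPKM in shNpc1, against 0.09, 0.07 and 0.06 in shControl) were also higher in all 3 shNpc1 libraries. Des overlapped between groups and had the lower mean in shNpc1 (0.34, 0.12 and 0.13 FPKM, against 0.14, 0.23 and 0.36 in shControl). Kcnj8 and Cspg4 were at 0.02 or less. The macrophage list summed to 214 to 257 FPKM in shNpc1 and 105 to 113 in shControl, nearly all Cd68, with Ptprc at 0.02 or less. The astrocyte list summed to 4.98 to 5.90 FPKM in shNpc1 and 1.10 to 1.15 in shControl, nearly all Aldh1l1, with Gfap at 0.02 or less, and the lists for neurons, oligodendrocytes and fibroblasts to at most 1.13 FPKM in any library. The part of these cells or markers in the results was not tested. In bulk RNA, fewer cells of a type and less RNA per cell cannot be told apart.

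Library shNpc1 4 stood apart from the other 5 in the genes described. It held the highest value of the 6 libraries for 78 of the 103 members (75.7%), against 37.4% of all 10400 genes tested. The lowest value was there for 7 members (6.80%), against 36.6% of all genes tested. This library was thus often at an extreme beyond the members too, in both directions. The median member lay 0.24 above its own mean on the log2(FPKM + 1) scale in shNpc1 4, and -0.073 and 0.017 from it in shNpc1 5 and 6, against -0.11, 0.029 and -0.059 in shControl 1, 2 and 3. The median of all genes tested lay between -0.019 and 0.037 in the 6 libraries. Group medians, and the log2 fold changes of many of the members named, are therefore also given without this library.

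**Figure D1:**
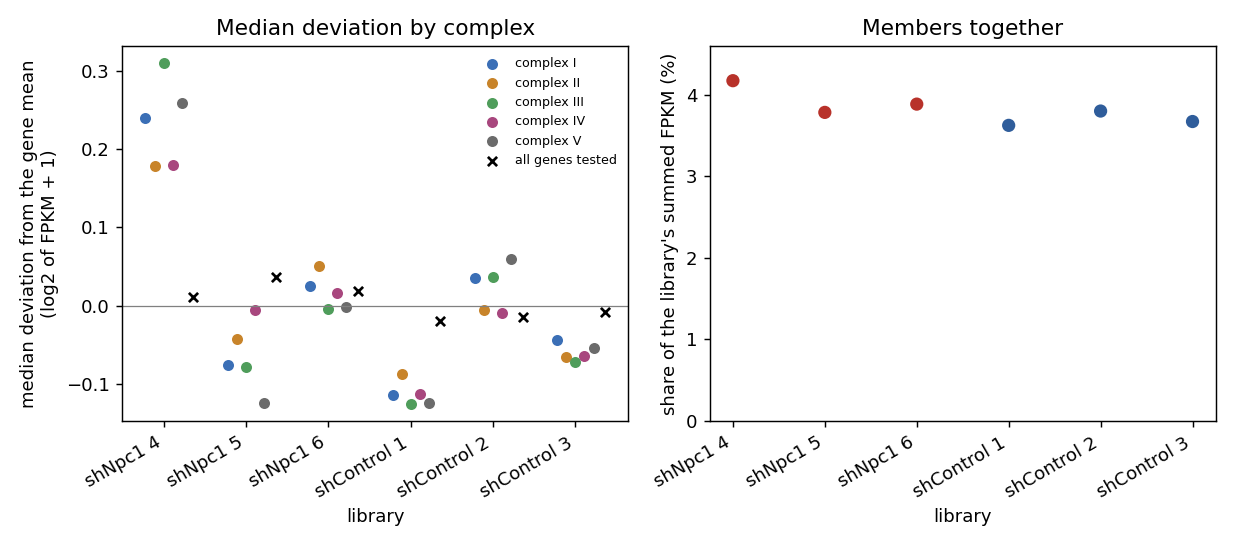
Left: for each library, the median over members of complex I to V of the deviation from the gene's mean over 6 libraries (log2 of FPKM + 1), with all genes tested as crosses. Right: the members' share of the library's summed FPKM in percent. In shNpc1 4 the points of all 5 complexes lie between 0.18 and 0.31, above those of every other library.

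The members were abundant. Together they held 4.17%, 3.78% and 3.89% of the summed FPKM in shNpc1 libraries 4, 5 and 6, against 3.63%, 3.80% and 3.67% in shControl libraries 1, 2 and 3. The groups overlapped, since shControl 2 lay above shNpc1 5 (3.95% ± 0.202 in shNpc1 and 3.70% ± 0.0909 in shControl, SD, n = 3 each; exact two-sided permutation p = 0.2). In all, 66 members (64.1%) averaged at least 100 FPKM, which 9.96% of all genes tested did.

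**Figure D2:**
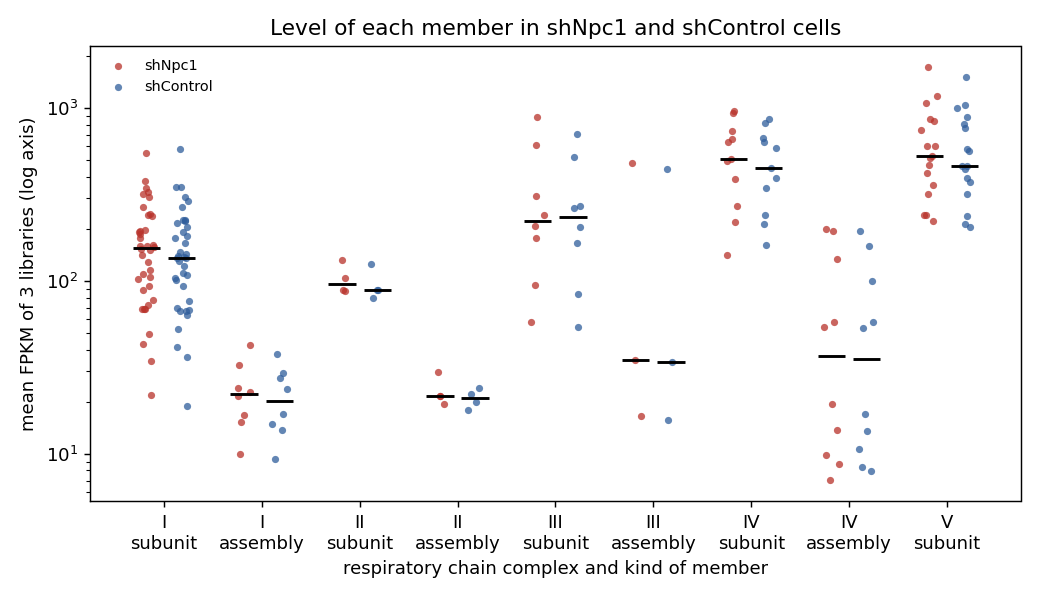
Mean FPKM of 3 libraries (log axis) of each member, by complex and kind, in shNpc1 and shControl cells; bars are medians. Subunits of complexes IV and V have the highest medians, and the 2 groups cover the same ranges.

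Subunits of complexes V and IV had the highest median levels in both groups, and those of complex II the lowest. The median subunit of complex V stood at 523 FPKM in shNpc1 and 462 FPKM in shControl, and that of complex IV at 506 FPKM in shNpc1 and 447 FPKM in shControl. Complex III subunits had medians of 223 FPKM in shNpc1 and 235 FPKM in shControl, and complex I subunits 155 FPKM in shNpc1 and 136 FPKM in shControl. The 4 subunits of complex II, the only enzyme of the chain that is also part of the citric acid cycle, had medians of 95.9 FPKM in shNpc1 and 88.8 FPKM in shControl. Assembly factors were lower, with medians of 21.5 FPKM in shNpc1 and 22.0 FPKM in shControl, and the highest was Uqcc2 of complex III, with 479 ± 133 FPKM in shNpc1 and 441 ± 35.0 FPKM in shControl (SD, n = 3 each).

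Between the groups, 2 of the 103 members differed past the threshold (limma, adjusted p under 0.05 over all 10400 genes tested), and both are assembly factors that rose in shNpc1. That is 1.94% of the members, where 17.9% of all genes tested passed. By direction, 2 members rose against a background of 12.0%, and 0 fell against a background of 5.89%. At an unadjusted p under 0.05, 10 members were higher and 3 lower, against 21.9% and 12.8% of all genes tested. None of the 78 subunits passed, 5 being higher and 1 lower at that unadjusted p. Over all genes 1251 were higher and 613 lower, and this split was 1404 and 433 with TPM scaling, 844 and 755 with libraries centred on their medians, 1369 and 1231 after a correction for GC content, and 1192 and 948 after one for transcript length.

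The counts depended on single libraries. No member passed without shControl 1, 2 or 3 or without shNpc1 6, when 332, 428, 309 and 474 genes in all were higher. Without shNpc1 5, 8 members (7.77%) rose and 0 fell, against backgrounds of 14.9% and 10.4%. Without shNpc1 4, the library that stood apart, 3 rose (Cox19, Sdhaf4 and Uqcrh) and 1 fell (Sdhaf3), against backgrounds of 18.3% and 10.1%. The median member had a log2 fold change of 0.097 with all libraries and 0.010 without shNpc1 4, and 83 and 57 of the 103 lay above 0. The median over all genes tested was 0.026 and 0.031. For the subunits of complexes I, II, III, IV and V, the medians were 0.094, 0.093, 0.12, 0.15 and 0.073 with all libraries, and 0.003, -0.016, 0.018, 0.056 and -0.035 without shNpc1 4.

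**Figure D3:**
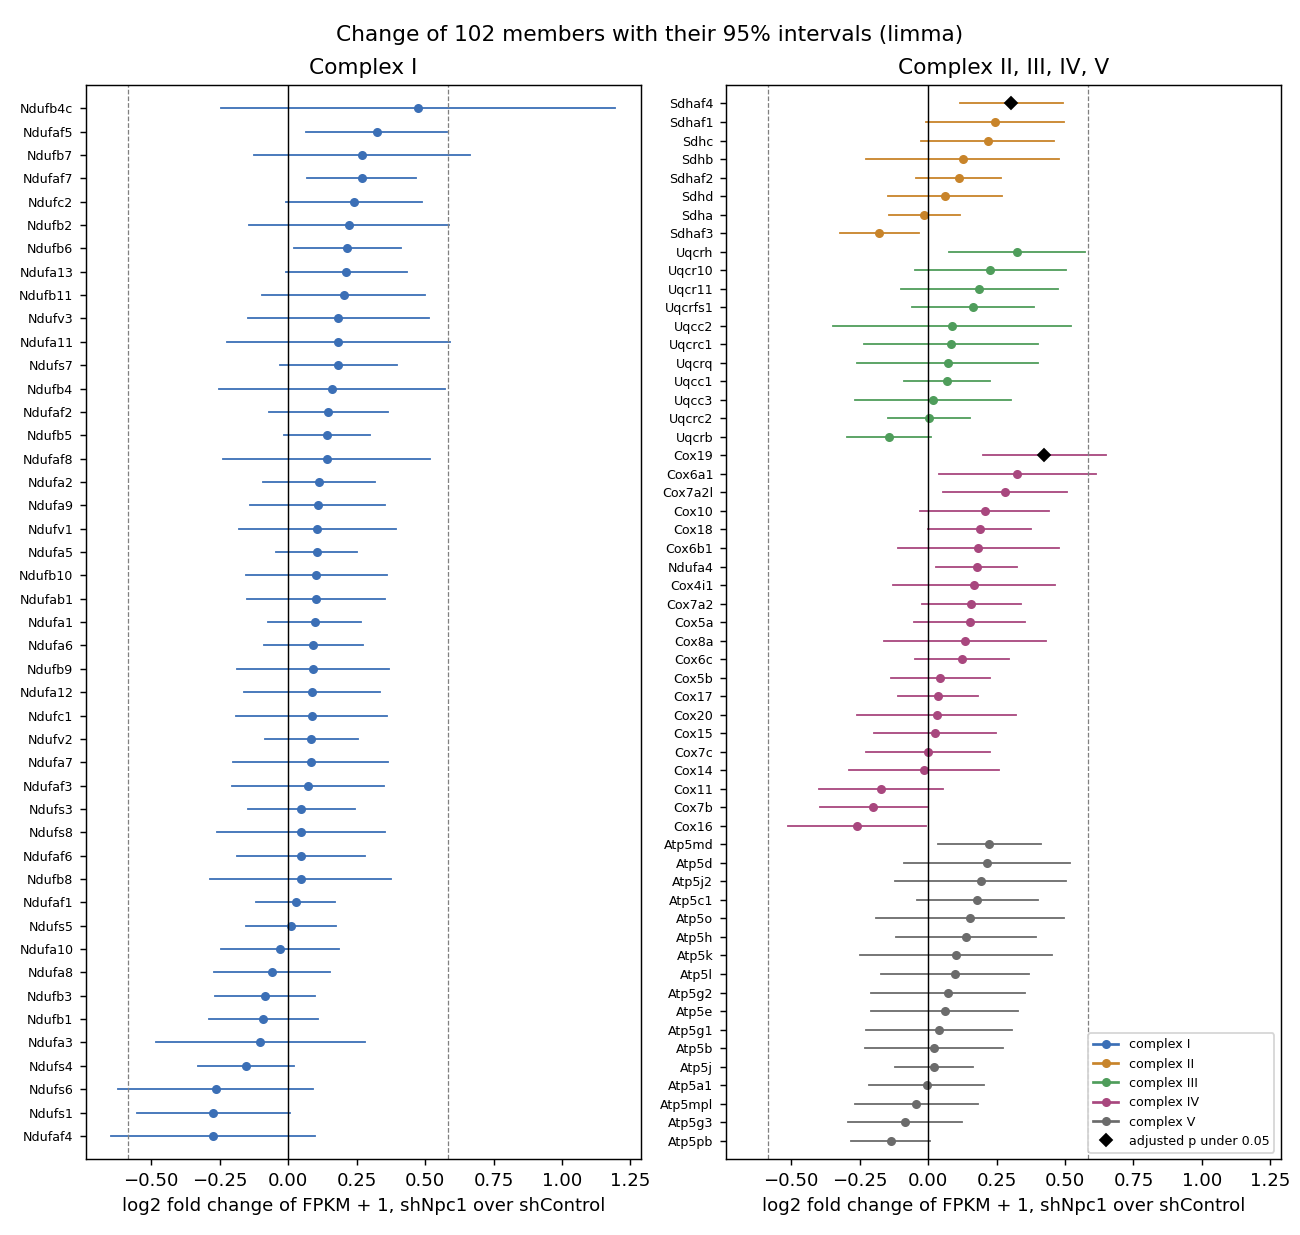
log2 fold change of FPKM + 1, shNpc1 over shControl, of 102 of the 103 members, each with its 95% interval from limma; dashed lines mark a 1.5-fold change either way and diamonds the members past the threshold. Cox19 and Sdhaf4 are the diamonds, and 8 of the intervals drawn reach past the dashed lines.

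Most intervals were narrow enough to limit the size of a change. For 95 members (92.2%) the 95% interval of the log2 fold change, unadjusted for the number of genes, lay within a 1.5-fold change either way, and for 102 within a 2-fold change. The same held for 73.6% and 95.02% of all genes tested. The members' intervals were not narrower, with a median half-width of 0.245 on the log2 scale against 0.225 over all genes tested. The 8 members whose interval reached past 1.5-fold were Cox19, Cox6a1, Ndufa11, Ndufaf4, Ndufb2, Ndufb4c, Ndufb7 and Ndufs6. Only that of Ndufb4c reached past 2-fold. This gene, whose name marks it as a relative of Ndufb4, had 103, 74.5 and 87.2 FPKM in shNpc1, against 38.2, 93.9 and 68.0 FPKM in shControl, and reads of the 2 genes may not be told apart.

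Cox19 (gene 68033) encodes a small protein of the intermembrane space that, in yeast, is needed to deliver copper to complex IV. Its level was 146, 121 and 133 FPKM in shNpc1 4, 5 and 6, against 90.4, 108 and 99.6 FPKM in shControl 1, 2 and 3. All 3 shNpc1 libraries lay above all 3 shControl libraries. The means were 134 ± 12.5 and 99.2 ± 8.64 FPKM (shNpc1 and shControl, SD, n = 3 each), which is 1.35-fold (limma adjusted p = 0.0258, log2 fold change 0.42, SE 0.095). The adjusted p was 0.108, 0.0543 and 0.102 without shControl 1, 2 and 3, 0.0911 without shNpc1 6 and 0.0131 without shNpc1 4, within a range of 0.00739 to 0.108 over 17 alternatives. The call was lost in 5 of the 17, the other being median centring. In the authors' deposited table Cox19 had a q of 0.0205, the only member with a q under 0.05, where 17.2% of the genes tested here and 12.1% of all genes deposited had one.

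Sdhaf4 (gene 68002) encodes a factor that helps Sdha, once it has received its flavin, to join Sdhb. It had 31.0, 27.4 and 30.6 FPKM in shNpc1 4, 5 and 6, against 22.0, 25.1 and 24.5 FPKM in shControl 1, 2 and 3, and the groups did not overlap. The means were 29.7 ± 1.95 and 23.85 ± 1.63 FPKM (shNpc1 and shControl, SD, n = 3 each), which is 1.24-fold (limma adjusted p = 0.0417, log2 fold change 0.30, SE 0.079). The adjusted p was 0.163, 0.0940 and 0.129 without shControl 1, 2 and 3 and 0.136 without shNpc1 6, within a range of 0.0257 to 0.163 over 17 alternatives. The call was lost in 8 of the 17, the other 4 being no filter on low values and median, TMM and quantile scaling. The authors' deposited table gave it a q of 0.292.

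The sequences before the RefSeq start sites of these 2 genes are shown because they are the members that passed. Each run holds the 250 bases up to the start, 5′ to 3′ on the gene's strand, from RefSeq (GRCm38.p6), for Cox19 at chr5:139345167-139345416 (minus strand) and for Sdhaf4 at chr1:24005641-24005890 (minus strand). Capitals mark any match to the motifs searched.
Cox19: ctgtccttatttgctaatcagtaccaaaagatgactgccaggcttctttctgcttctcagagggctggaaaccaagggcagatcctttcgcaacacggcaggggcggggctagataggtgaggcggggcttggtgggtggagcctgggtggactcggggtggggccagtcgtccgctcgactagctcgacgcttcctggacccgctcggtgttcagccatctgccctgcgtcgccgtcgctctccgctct
Sdhaf4: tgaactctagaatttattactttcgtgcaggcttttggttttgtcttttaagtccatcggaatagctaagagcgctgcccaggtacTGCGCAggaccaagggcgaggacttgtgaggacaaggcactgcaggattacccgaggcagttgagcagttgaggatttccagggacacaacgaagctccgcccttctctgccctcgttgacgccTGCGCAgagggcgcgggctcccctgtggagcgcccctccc
The motifs, sought on both strands from 250 bases before to 50 after each start, were TGCGCA (core of NRF1, which reads the same on both strands), CCGGAAG (GABPA and other ETS factors), ATGGCGG (YY1) and AAGGTCA (ESRRA), factors known as activators of respiratory chain genes. Sdhaf4 held TGCGCA at 164 and 40 bases before the start, and Cox19 held none of the 4. RefSeq windows were at hand for 87 members, with 93 windows. Of these, 24.7% held TGCGCA, 30.1% CCGGAAG, 17.2% ATGGCGG and 9.68% AAGGTCA, against 14.5%, 19.2%, 8.73% and 2.94% of the 10783 windows of genes tested and 7.76%, 8.86%, 4.05% and 4.72% of all 32851 windows. Each motif was counted alone, and matches of different motifs may overlap.

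**Figure D4:**
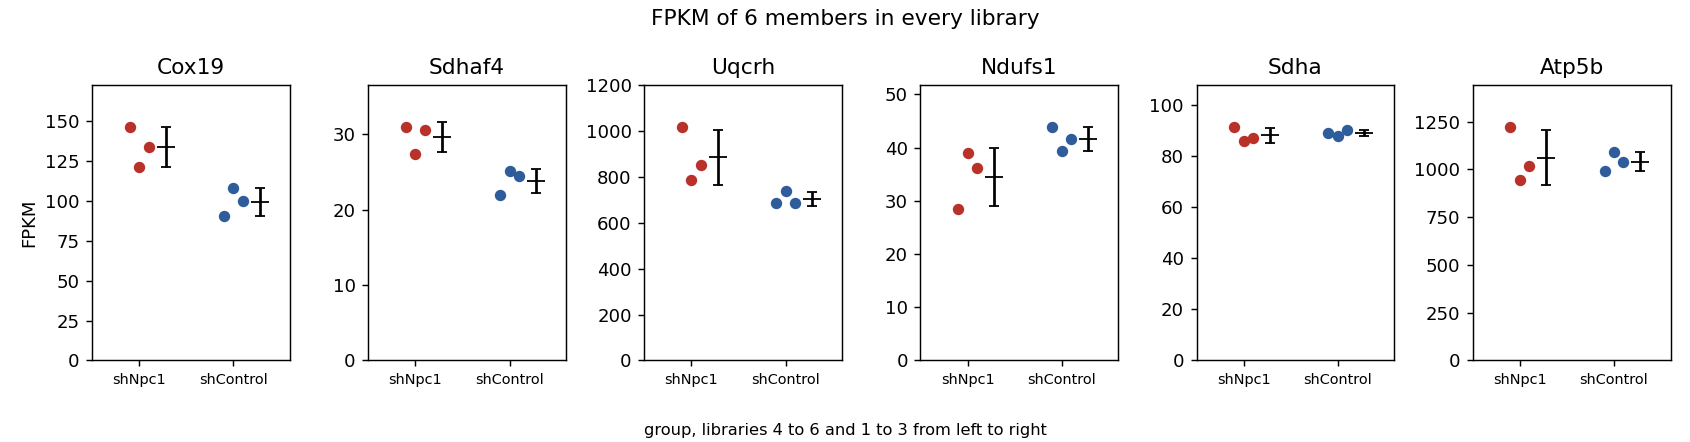
FPKM of 6 members in each library, with shNpc1 4, 5 and 6 and shControl 1, 2 and 3 from left to right in each panel; the bar is the mean ± SD of 3 libraries. Cox19, Sdhaf4 and Uqcrh lie higher and Ndufs1 lower in all 3 shNpc1 libraries than in all 3 shControl libraries, while Sdha and Atp5b overlap.

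Complex I had 38 subunits and 8 assembly factors among the members, none past the threshold in either direction (medians of log2 fold change 0.094 and 0.11, and 0.003 and 0.041 without shNpc1 4; limma). At an unadjusted p under 0.05, 1 subunit and 2 assembly factors were higher. The 7 core subunits, which carry the flavin and iron-sulfur centres, had a median of 0.059, and the 31 supernumerary ones a median of 0.10. Without shNpc1 4 the medians of the core and supernumerary subunits were -0.031 and 0.008.

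Ndufs1, the largest iron-sulfur subunit of the arm that takes electrons from NADH, had 28.4, 38.9 and 36.2 FPKM in shNpc1, against 43.9, 39.4 and 41.6 FPKM in shControl. It was lower in all 3 shNpc1 libraries, with shNpc1 4 lowest, and did not pass (log2 -0.27, 95% interval -0.55 to 0.006, limma adjusted p = 0.151; log2 -0.14 without shNpc1 4). Its partner in that arm Ndufv1, which binds NADH and flavin, had 87.0, 63.3 and 67.0 FPKM in shNpc1, against 63.8, 70.5 and 65.5 FPKM in shControl, with overlapping groups. In shNpc1 4, Ndufs1 was thus the lowest and Ndufv1 the highest of 6 libraries.

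Among the supernumerary subunits, Ndufs6 had a log2 fold change of -0.26 (interval -0.62 to 0.090), with its lowest value, 72.1 FPKM, in shNpc1 5. Ndufb6 had 0.22 (interval 0.022 to 0.41, limma adjusted p = 0.114) and Ndufc2 0.24 (interval -0.006 to 0.49, adjusted p = 0.152), and in both the groups did not overlap. Without shNpc1 4 the log2 fold changes were 0.15 for Ndufb6 and 0.14 for Ndufc2. Ndufb6 was called higher in 3 of 17 alternatives (limma adjusted p = 0.0282 to 0.308) and Ndufc2 in 2 (0.0328 to 0.411). Ndufa9 and Ndufb8, often used as markers of the complex, had 0.11 and 0.046 with overlapping groups, and 0.008 and -0.10 without shNpc1 4.

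Of the complex I assembly factors, Ndufaf5, which modifies an arginine of Ndufs7, had 22.5, 18.8 and 22.9 FPKM in shNpc1, against 15.6, 19.1 and 16.1 FPKM in shControl (log2 0.32, limma adjusted p = 0.0823). Ndufaf7, a methyltransferase, had 17.3, 15.4 and 17.2 FPKM in shNpc1, against 12.5, 14.6 and 13.9 FPKM in shControl (log2 0.27, adjusted p = 0.0684). Ndufaf7 did not overlap between groups and Ndufaf5 did; both passed only without shNpc1 5 (adjusted p = 0.0438 for Ndufaf7 and 0.0335 for Ndufaf5; 0.0438 to 0.236 and 0.0335 to 0.264 over 17 alternatives). Ndufaf4 had the lowest log2 fold change of all members, -0.27 (interval -0.65 to 0.098), with 17.1 FPKM in shNpc1 4 and 23.9 to 28.3 FPKM in the other 5 libraries; without shNpc1 4 it was -0.089, and after the correction for GC content 0.008. Ndufaf1, which acts early in assembly, had 23.1 to 24.9 FPKM in shNpc1 and 23.0 to 24.1 FPKM in shControl (interval -0.12 to 0.17).

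The subunits of complex II kept overlapping groups, 4 of 4. Sdha, which holds the flavin, had 91.4, 86.0 and 87.1 FPKM in shNpc1, against 89.0, 87.8 and 90.2 FPKM in shControl, a log2 fold change of -0.014 with an interval of -0.14 to 0.12. The values of both groups lay close together, with shNpc1 4 highest and shNpc1 5 lowest. Sdhb, the iron-sulfur subunit, had 109, 71.0 and 83.3 FPKM in shNpc1, against 75.2, 84.9 and 77.3 FPKM in shControl, so that shNpc1 4 was the highest and shNpc1 5 the lowest library. The membrane anchors Sdhc and Sdhd had log2 fold changes of 0.22 and 0.061, and 0.12 and 0.005 without shNpc1 4.

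Beside Sdhaf4, the complex II assembly factors did not pass. Sdhaf1, which helps to place iron-sulfur centres in Sdhb, had 25.3, 19.2 and 20.1 FPKM in shNpc1, against 18.2, 17.4 and 18.0 FPKM in shControl (log2 0.25, limma adjusted p = 0.153). Sdhaf3, also tied to Sdhb, had 20.1, 19.3 and 18.6 FPKM in shNpc1, against 22.6, 21.7 and 21.8 FPKM in shControl. Neither overlapped between groups, Sdhaf1 being higher and Sdhaf3 lower in shNpc1. Sdhaf3 did not pass (log2 -0.18, adjusted p = 0.0868) and was called lower only without shNpc1 4 (adjusted p = 0.0226; 0.0226 to 0.691 over 17 alternatives), and its sign turned after the correction for GC content (log2 0.090).

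In complex III, 0 of 8 subunits and 0 of 3 assembly factors passed (limma; 1 subunit at an unadjusted p under 0.05, higher). Uqcrh, the hinge protein that binds cytochrome c1, had 1018, 788 and 851 FPKM in shNpc1, against 687, 739 and 685 FPKM in shControl. All 3 shNpc1 libraries were above all 3 shControl libraries (log2 0.32, interval 0.077 to 0.57, adjusted p = 0.0745). It was called higher without shNpc1 4 (limma adjusted p = 0.0367) and without shNpc1 5 (adjusted p = 0.0320), with TPM or quantile scaling and after the length correction, 5 of 17 alternatives (0.00340 to 0.229). Uqcrb, a small subunit near the ubiquinone site, lay lower, with 244, 243 and 230.1 FPKM in shNpc1, against 251, 278 and 263 FPKM in shControl. Its groups did not overlap either (log2 -0.14, interval -0.30 to 0.011, adjusted p = 0.169), and the sign turned after the correction for GC content (log2 0.048). The core proteins Uqcrc1 and Uqcrc2 and the Rieske iron-sulfur protein Uqcrfs1 overlapped between groups, with log2 fold changes of 0.083, 0.002 and 0.16, and -0.068, -0.020 and 0.085 without shNpc1 4.

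In complex IV, 0 of 11 subunits passed (limma; 2 higher and 1 lower at an unadjusted p under 0.05), and their median log2 fold change was 0.15, against 0.056 without shNpc1 4. Cox6a1, the form of subunit 6a found in most tissues, had 578, 438 and 471 FPKM in shNpc1, against 365, 436 and 379 FPKM in shControl. The groups were apart, by 437.89 in shNpc1 5 against 436.4 in shControl 2 at the nearest (log2 0.33, adjusted p = 0.108; log2 0.21 without shNpc1 4). Cox6a1 was called higher with TPM or quantile scaling, after the length correction and without shNpc1 5, 4 of 17 alternatives (limma adjusted p = 0.00870 to 0.310). Cox5a and Cox7a2 were also higher in all 3 shNpc1 libraries, with log2 fold changes of 0.15 and 0.16, against 0.067 and 0.089 without shNpc1 4. With Ndufa4, 4 of the 11 subunits (36.4%) were apart in that direction, as were 27.4% of all genes tested. Ndufa4 had 672, 676 and 640.5 FPKM in shNpc1, against 576, 606 and 577 FPKM in shControl, also apart (log2 0.18, adjusted p = 0.0927), and without shNpc1 4 the log2 fold change was 0.17. Cox7b was lower in all 3 shNpc1 libraries, with 128, 153 and 140 FPKM, against 171, 157 and 155 FPKM in shControl (log2 -0.20, adjusted p = 0.135). Cox4i1, Cox5b, Cox6c, Cox7c and Cox8a overlapped between groups, with log2 fold changes from 0.001 for Cox7c to 0.17 for Cox4i1; without shNpc1 4 these were -0.089 and 0.036.

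Among the tissue forms of complex IV subunits with values here, the widely expressed form had the higher level. Cox6a2, the heart and muscle form, was listed at 0.31, 0.16 and 0.17 FPKM in shNpc1, against 1.10, 1.55 and 0.17 FPKM in shControl, below the limit for testing. Cox6b2 and Cox7b2, known from testis, were listed at 0 in 5 of 6 libraries each, and Ndufa4l2, a relative of Ndufa4, at 0 in 4 of 6. The same subunits' main forms, Cox6b1, Cox7b and Ndufa4, stood at 935 ± 152, 140.3 ± 12.3 and 663 ± 19.6 FPKM in shNpc1 and at 818 ± 57.7, 161 ± 8.66 and 586 ± 17.3 FPKM in shControl (SD, n = 3 each). Cox4i2, Cox7a1, Cox8b and Cox8c were not analysed here.

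Among the 10 assembly factors of complex IV, Cox19 rose and the others did not pass. Cox10 and Cox15, which make heme A, had log2 fold changes of 0.21 and 0.026. Cox11 and Cox17, which handle copper as Cox19 does, had -0.17 and 0.036, with intervals of -0.40 to 0.056 and -0.11 to 0.18. Cox17 had 199, 207 and 190.1 FPKM in shNpc1, against 189, 202 and 191 FPKM in shControl. Cox7a2l had 217, 170 and 192 FPKM in shNpc1, against 152, 159 and 163 FPKM in shControl, apart between groups (log2 0.28, adjusted p = 0.0846), and Cox16 was the lowest of the 10 (log2 -0.26, adjusted p = 0.135).

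In complex V, 0 of 17 subunits passed (limma; 1 at an unadjusted p under 0.05, higher). Atp5a1 and Atp5b, alpha and beta of the F1 head, had log2 fold changes of -0.005 (interval -0.22 to 0.21) and 0.021 (interval -0.23 to 0.27). Atp5b had 1222, 947 and 1016 FPKM in shNpc1, against 993, 1093 and 1037 FPKM in shControl, so that the highest and the lowest value were both in shNpc1. Atp5c1, the gamma shaft that turns inside the head, had 594, 480 and 495 FPKM in shNpc1, against 446, 472 and 460 FPKM in shControl, without overlap (log2 0.18, adjusted p = 0.215; log2 0.085 without shNpc1 4). The most abundant member of all was Atp5j2, subunit f of the membrane part, with 2053, 1495 and 1640 FPKM in shNpc1, against 1363, 1580 and 1566 FPKM in shControl.

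Atp5md, a small protein that helps ATP synthase to form dimers, had 1251, 1144 and 1122 FPKM in shNpc1, against 961, 1070 and 979 FPKM in shControl (log2 0.22, adjusted p = 0.0942). Atp5pb, subunit b of the stalk that holds the head still, had 340.1, 360 and 366 FPKM in shNpc1, against 379, 396 and 396 FPKM in shControl (log2 -0.14, adjusted p = 0.164). In neither did the groups overlap, Atp5md being higher and Atp5pb lower in shNpc1. Atp5pb was called lower after the correction for GC content (adjusted p = 0.0453; 0.0453 to 0.393 over 17 alternatives).

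Atp5g1, Atp5g2 and Atp5g3 encode the same mature subunit c, the proton-carrying ring, behind different import signals. Their FPKM summed to 1730, 1383 and 1468 in shNpc1, against 1472, 1645 and 1511 in shControl (1527 ± 181 and 1543 ± 90.6, SD, n = 3 each), and the groups overlapped. Atp5g3 held most of that sum, 53.6%, 55.8% and 55.4% in shNpc1 and 57.6%, 56.2% and 58.4% in shControl. Its share was lower in all 3 shNpc1 libraries. Atp5g2 held 30.2% to 31.3% in shNpc1 and 27.7% to 30.2% in shControl, with shNpc1 5 just above shControl 2. Fragments from stretches shared by the 3 genes may have been divided between them, and these shares, chosen after their values were seen, were not tested.

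Counted over all complexes, the groups did not overlap in 18 members that were higher and 6 that were lower in shNpc1. These are 17.5% and 5.83% of the members, where 27.4% and 16.1% of all genes tested were so.

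GC content moved most strongly with the values of shNpc1 4, and with those of several other libraries in the opposite direction. Over the 101 members with a GENCODE transcript, the deviation in shNpc1 4 had a Spearman correlation of 0.58 with GC content, and over all genes tested one of 0.71. For shNpc1 5 and 6 it was -0.40 and -0.034 over members, and -0.30 and 0.18 over all genes. For shControl 1, 2 and 3 it was -0.28, 0.057 and -0.30 over members, and -0.56, -0.27 and -0.47 over all genes. Deviations are from the gene's own mean over these libraries, so the values depend on one another. The log2 fold change had a correlation of 0.26 with GC content over members and 0.51 over all genes. Points share their libraries, and no p is given. The 21 members with at least 55% GC all had a positive log2 fold change (median 0.14) and 20 of them were highest in shNpc1 4, while of the 17 members under 45% GC 10 were positive (median 0.002) and 7 were highest there. Of the 7 members lowest in shNpc1 4, Ndufaf4, Cox7b and Ndufs4 had 39.5%, 42.0% and 43.1% GC. Ndufs1, Cox15, Atp5pb and Cox11 had 45.1%, 47.7%, 49.1% and 49.8%, where the median of all members was 50.2%. After a spline on GC content was subtracted from each library, the members' median was 0.032 and 67 were positive. With this setting 2 members passed as higher (Cox19 and Sdhaf4) and 3 as lower (Ndufs1, Ndufa8 and Atp5pb). Of all 10400 genes tested, 1369 passed as higher and 1231 as lower with it, together 25%. The limma adjusted p of Ndufs1, Ndufa8 and Atp5pb was 0.0382, 0.0404 and 0.0453. Over 17 alternatives it ran from 0.0382 to 0.379 for Ndufs1 and from 0.0404 to 0.937 for Ndufa8.

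**Figure D5:**
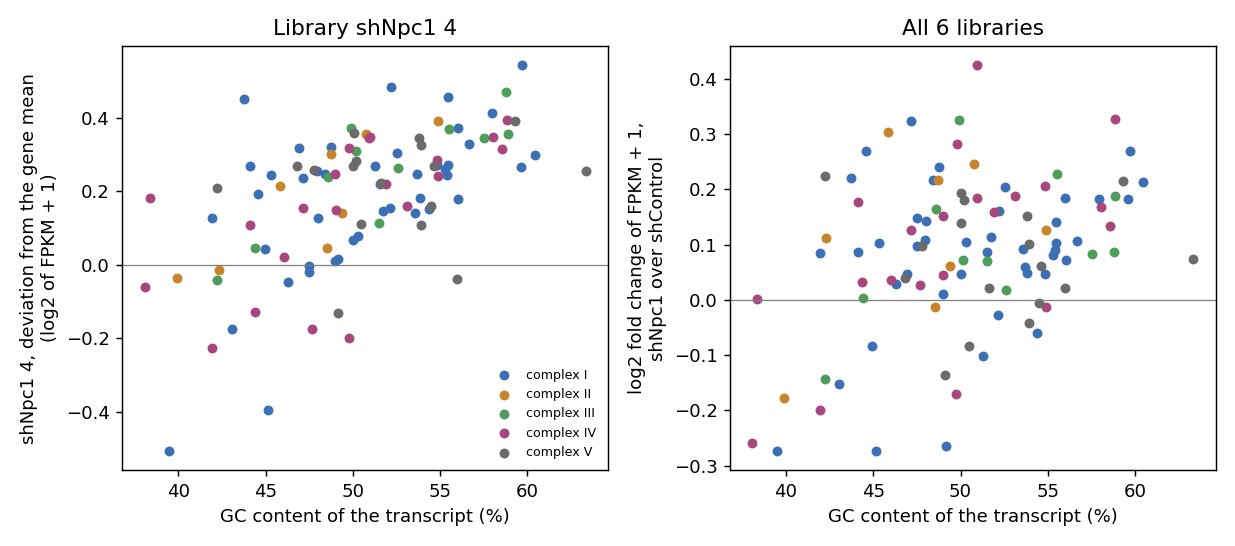
Members by GC content of their longest protein-coding GENCODE transcript in percent. Left: deviation in shNpc1 4 from the gene's mean over 6 libraries (log2 of FPKM + 1), where points climb with GC content; right: log2 fold change of shNpc1 over shControl, with a weaker slope (Spearman 0.58 and 0.26, 101 members).

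Members were also short, with a median transcript of 1001 bases against 3139 over all genes tested, and FPKM of short transcripts depends strongly on the length assumed. In GENCODE, 40 of the 103 share exon sequence with another gene, in 27 cases a protein-coding gene on the opposite strand, such as Eef1b2 beside Ndufs1 and Mrpl36 beside Ndufs6. The labels do not say whether strand was kept, so reads of such pairs may not be told apart. For 6 members, Ndufb8, Cox16 and Cox17 among them, a protein-coding entry lies on the same strand, where strand would not part the reads either. Cox19 has no such neighbour, and Sdhaf4 overlaps only an unclassified transcript, Gm26524.

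Other genes of electron transport and assembly, outside the symbol rule, were 62, of which 56 were tested. Of these, 4 rose and 0 fell (limma adjusted p under 0.05, against backgrounds of 12.0% and 5.89%), and their median log2 fold change was 0.075. Atpaf1, which brings the beta subunit into ATP synthase, had 50.0, 48.5 and 52.2 FPKM in shNpc1, against 41.9, 40.2 and 41.8 FPKM in shControl (log2 0.28, adjusted p = 0.0210). Coa5, a complex IV assembly factor, rose 1.22-fold (adjusted p = 0.0259), Cmc2, also of complex IV, 1.26-fold (adjusted p = 0.0340) and Coq2, which joins the side chain to the ubiquinone ring, 1.25-fold (adjusted p = 0.0377). In each of these 4 genes the groups did not overlap. None of the 4 passed without shControl 1, 2 or 3 or without shNpc1 6. Counting scaling, filter and correction settings too, the call was lost in 5 of 17 alternatives for Atpaf1 and Coa5, 9 for Cmc2 and 10 for Coq2, and the adjusted p reached 0.1005 for Atpaf1, 0.121 for Coa5, 0.147 for Cmc2 and 0.152 for Coq2 in the least favourable of 17 alternatives. The subunits encoded in mitochondrial DNA were not analysed here.

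Among 26 tested regulators of mitochondrial gene expression, 1 rose and 1 fell, against backgrounds of 12.0% and 5.89%, with a median of -0.064. Nfe2l2, the gene of the stress factor NRF2, rose, with 94.2, 99.97 and 99.5 FPKM in shNpc1, against 74.6, 73.9 and 79.2 FPKM in shControl (log2 0.36, limma adjusted p = 0.00940; 0.0599, 0.0562 and 0.0517 without shControl 1, shControl 2 and shNpc1 6). Prkaa1, a catalytic subunit of the energy sensor AMPK, fell, with 15.96, 21.4 and 19.8 FPKM in shNpc1, against 28.2, 25.7 and 27.2 FPKM in shControl (log2 -0.49, adjusted p = 0.0257; 0.112, 0.0750, 0.104 and 0.0734 without shControl 1, 2 and 3 and shNpc1 6; 0.00381 to 0.112 over 17 alternatives). Neither gene overlapped between groups. Nrf1, Gabpa, Tfam and Esrra were among the 24 that did not pass, with log2 fold changes of 0.099, -0.49, -0.23 and 0.17. Tfam was lower in all 3 shNpc1 libraries than in all 3 shControl libraries, while Nrf1, Gabpa and Esrra overlapped between groups.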

How the data were processed

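Libraries of polyadenylated RNA from 3 shNpc1 and 3 shControl samples were compared through 1 table. The authors deposited FPKM per gene and library, with their own log2 ratios, p-values and q-values; for the aligner, genome build, counting and strand, the sources used here give nothing. Read depth is unknown, so no counting error is given. Genes averaging 1 FPKM or more (10400 of 15917) were fitted as log2(FPKM + 1) with limma 3.58.1 in R 4.3.3 (empirical Bayes with intensity trend, shNpc1 minus shControl, Benjamini-Hochberg adjustment, threshold 0.05), after a test on simulated data. On this scale the changes of low genes are understated. Tables were joined in Python 3.11.15 with pandas 2.3.3 and scipy 1.17.1. Alternatives were a pseudocount of 0.1, no filter or a mean of at least 5 FPKM, TPM, median, TMM and quantile scaling, limma without trend or robust, splines with 5 degrees of freedom on GC content or length, and each library left out. Length, GC content and exon overlap came from GENCODE and promoters from RefSeq. Members, lists and tests were chosen with earlier results of these data known. By rule, the text names Npc1, members past the threshold, landmark subunits, tissue forms and members with extreme changes or levels; the remaining members were named after their values were seen. One landmark subunit is not reported here.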

Additional observations from a re-analysis of the deposited data

How the results depend on the processing

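No paired analysis was possible because the replicate numbers of shNpc1 (4 to 6) and shControl (1 to 3) are not shared. Of the 103 members, those called higher numbered 2, and 1 with no filter on low values, 8 with TPM scaling, 0 with median centring, 1 with TMM scaling, 5 with quantile normalization, 8 after the length correction, and 0 to 8 with 1 library left out. Members called lower numbered 0, and 3 after the GC correction and 0 to 1 with 1 library left out. The share of all genes called in either direction was 17.9%. It was 10.3% with no filter, 17.7% with TPM scaling, 15.4% with median centring, 16.4% with TMM scaling and 18.5% with quantile normalization. After the length and GC corrections it was 20.6% and 25%, and with 1 library left out 4.51% to 28.4%. Over all genes, 1251 were higher (309 to 1907 with 1 library left out) and 613 lower (1231 after the GC correction, 948 after the length correction, 160 to 1082 with 1 library left out). The cause of these differences was not tested. The members' median log2 fold change lay between 0.010 and 0.18 over the 17 alternatives. Cox19 and Sdhaf4 had positive log2 fold changes in all 17, but their calls were lost in 5 and 8 of them. Read depth is unknown, so how far counting error limits the values cannot be given.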

Other observations

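All 20 citric acid cycle and pyruvate entry genes of the list were tested, and 2 rose and 0 fell in shNpc1 (limma adjusted p under 0.05, against 12.0% and 5.89% of all genes tested; median log2 fold change 0.037). Ogdh, a subunit of the 2-oxoglutarate dehydrogenase complex, rose, with 86.7, 71.2 and 76.3 FPKM in shNpc1, against 57.2, 58.2 and 58.6 FPKM in shControl (log2 0.42, limma adjusted p = 0.0161; 0.00216 to 0.0808 over 17 alternatives). Pcx, which makes oxaloacetate from pyruvate, rose, with 11.6, 8.45 and 8.82 FPKM in shNpc1, against 6.79, 6.72 and 6.87 FPKM in shControl (log2 0.43, limma adjusted p = 0.0446; 0.00966 to 0.150 over 17 alternatives). Neither passed without shControl 1, 2 or 3 or without shNpc1 6, with adjusted p of 0.0808, 0.0685, 0.0767 and 0.0610 for Ogdh and 0.150, 0.134, 0.141 and 0.0930 for Pcx. Citrate synthase, Cs, had 227, 195 and 201 FPKM in shNpc1, against 176, 188 and 186 FPKM in shControl, without overlap (log2 0.18, limma adjusted p = 0.147). Idh3a had a log2 fold change of 0.005 with overlapping groups.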
